A study of Rattus norvegicus with 6 samples.

Results

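A set of 10 genes of liver drug metabolism was followed in rat liver: the cytochrome P450 genes Cyp2e1, Cyp1a1, Cyp1a2, Cyp2a1, Cyp2a2, Cyp2b1 and Cyp2b2, the reductase gene Por, and the receptor genes Ahr and Nr1i3. They were matched by symbol to probes through the RefSeq accession that the array files give for each probe. All 10 genes were found among 15645 named genes, on 20 of 61537 probes. Liver RNA of 6 male rats of the Sprague-Dawley (Crl:CD(SD)) stock was hybridised to 1-colour microarrays, 1 array per rat: 3 rats had received the liver toxicant carbon tetrachloride (CCl4), 100 mg/kg/day, and the other 3 corn oil. The rats were 5 weeks old when bought. How long they were dosed is not settled, since 28 days is named in the description of the series and 9 weeks in that of the treatment. Sprague-Dawley rats are an outbred stock, so animals of a group differ in genotype. The 8 hepatocyte markers checked, among them Alb, which encodes albumin, were all measured in these livers.

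Cytochrome P450 enzymes sit in the endoplasmic reticulum of hepatocytes, where they oxidise drugs, solvents and steroids with electrons passed on by the reductase POR. CYP2E1 is the main enzyme that turns CCl4 into reactive radicals, and in liver it is concentrated in hepatocytes around the central vein, where CCl4 injury is centred. AHR is a ligand-activated factor that switches on CYP1A genes, and the constitutive androstane receptor CAR, encoded by Nr1i3, mediates the induction of CYP2B genes by phenobarbital.

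The proximal promoters of the genes on which the results turn are shown first, from RefSeq on the GRCr8 build, each with 250 bases before and 50 bases after the annotated start. Windows of 8 of the 10 genes were matched in the table used. The Cyp2e1 window is chr1:205269717-205270016 on the + strand, that of Cyp1a2 is chr8:66978100-66978399 on the - strand, and that of Nr1i3, which with Cyp1a2 differed most between the groups, is chr13:86165170-86165469 on the + strand. Capitals mark TATAAA, the letters of a TATA box, GCGTG, the core bound by AHR, and AGGTCA, the half-site of nuclear receptors such as CAR, on either strand.
Cyp2e1: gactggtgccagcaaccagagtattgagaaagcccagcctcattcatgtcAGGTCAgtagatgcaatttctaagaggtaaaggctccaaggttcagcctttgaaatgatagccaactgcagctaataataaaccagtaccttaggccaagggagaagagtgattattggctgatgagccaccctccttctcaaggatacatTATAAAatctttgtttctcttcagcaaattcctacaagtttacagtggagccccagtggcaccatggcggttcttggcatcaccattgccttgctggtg
Cyp1a2: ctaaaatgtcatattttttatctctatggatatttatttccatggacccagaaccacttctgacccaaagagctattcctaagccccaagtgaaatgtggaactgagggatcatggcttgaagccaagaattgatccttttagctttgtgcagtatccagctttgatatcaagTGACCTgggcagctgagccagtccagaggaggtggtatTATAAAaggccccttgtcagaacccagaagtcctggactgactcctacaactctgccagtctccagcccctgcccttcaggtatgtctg
Nr1i3: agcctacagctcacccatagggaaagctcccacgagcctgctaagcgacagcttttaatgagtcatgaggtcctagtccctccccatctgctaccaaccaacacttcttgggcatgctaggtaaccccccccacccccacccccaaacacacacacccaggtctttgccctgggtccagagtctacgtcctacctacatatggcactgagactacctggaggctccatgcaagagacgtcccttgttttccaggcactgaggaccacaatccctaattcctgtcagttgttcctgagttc
TATAAA was found in 3 of the 8 windows, those of Cyp2e1, Cyp1a2 and Cyp2a1, against 14.2% of 33469 promoters of the same length. AGGTCA was found in the windows of Cyp2e1, Cyp1a2 and Por (16.2% of all promoters), and GCGTG in those of Cyp2b1, Cyp2b2 and Por (29.7% of all promoters). In Por 1 match of AGGTCA overlaps a match of GCGTG. These letters say nothing on whether a factor binds there.

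Cyp2b1 and Cyp2b2 encode closely related enzymes, and their promoters are shown because the pair is nearly alike in sequence. The windows are chr1:90645869-90646168 and chr1:90722031-90722330, both on the + strand, and capitals mark the bases that differ between them.
Cyp2b1: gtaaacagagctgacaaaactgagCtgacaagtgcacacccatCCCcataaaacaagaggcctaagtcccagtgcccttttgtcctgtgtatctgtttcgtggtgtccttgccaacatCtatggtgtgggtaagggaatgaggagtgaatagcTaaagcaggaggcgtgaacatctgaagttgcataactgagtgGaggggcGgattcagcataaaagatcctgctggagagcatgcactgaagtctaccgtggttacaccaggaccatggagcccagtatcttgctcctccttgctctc
Cyp2b2: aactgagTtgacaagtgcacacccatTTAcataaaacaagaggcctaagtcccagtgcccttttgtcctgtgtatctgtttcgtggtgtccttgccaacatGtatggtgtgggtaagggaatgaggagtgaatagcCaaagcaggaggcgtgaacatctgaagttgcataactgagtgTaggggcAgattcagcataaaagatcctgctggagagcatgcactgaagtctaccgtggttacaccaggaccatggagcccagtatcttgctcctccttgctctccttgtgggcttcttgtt
Over the 283 aligned positions that both windows cover, 97.2% were identical and 8 held different bases. Probes of closely related genes can bind RNA of both, but probe sequences were not examined, and the likeness of promoters does not show it. Values given under Cyp2b1 and Cyp2b2 are therefore not certain to be of that gene alone. Binding across genes was not checked for Cyp2a1 and Cyp2a2 either. The RefSeq table places Cyp2b1, Cyp2b2, Cyp2a1 and Cyp2a2 along the same chromosome, with 13 other protein-coding genes starting between Cyp2b1 and Cyp2a2 when the 2 inner genes are counted. In that table Cyp2a1 and Cyp2a2 are direct neighbours, as are Cyp1a1 and Cyp1a2.

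The brightness of the arrays went with the slide they were on. The 75th percentile of processed signals was 585.0 units for CCl4 replicate 1 and 582.6 to 598.4 units on corn oil arrays. It was higher, at 675.6 and 666.1 units, for CCl4 replicates 2 and 3. On each array 61.9% to 67.3% of probes were well above background. Correlations across genes, which are not independent replicates, were 0.984 to 0.990 between arrays of a group and 0.973 to 0.987 between groups. CCl4 replicates 2 and 3 had a slide of their own, scanned on another day. CCl4 replicate 1 shared a slide, called the first, with all 3 corn oil arrays, so slide and treatment cannot be fully told apart. Values within the first slide therefore set 1 CCl4 rat against 3 corn oil rats. For single genes they are given without a p-value, since the spread of CCl4 rats is not measured there. A fit within that slide enters only the counts under alternatives at the end. Values below are log2 signals relative to each array's 75th percentile, called scaled log2 signals, from the brightest probe of a gene unless stated. They are levels of 1 probe each and are not compared between genes.

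Of the 10 genes, 9 passed the filter on dim probes and were tested among 11939 genes, and 0 of the 9 passed limma's test at an adjusted p below 0.05, a threshold that 0.637% of all genes passed. The log2 change, CCl4 minus corn oil, was negative for 8 of the 9, against 57.2% of all genes, and positive for Por. Nr1i3 and Cyp1a2 had the largest differences in the reported setting, at 0.467 and 0.474 times the corn oil signal, and ranked 217 and 400 of 11939 genes by p. At an unadjusted p below 0.05 there were 5 of the 9 genes, Nr1i3, Cyp1a2, Cyp2a1, Cyp2b1 and Ahr, all lower in CCl4, against 9.77% of all genes that were lower at this level. In 4 of the 9, which are Nr1i3, Cyp1a2, Cyp2a1 and Cyp2b1, every CCl4 rat was below every corn oil rat, which held for 15.9% of all genes. The median log2 change of the 9 genes was -0.45, and that of all genes tested was -0.05.

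**Figure D1:**
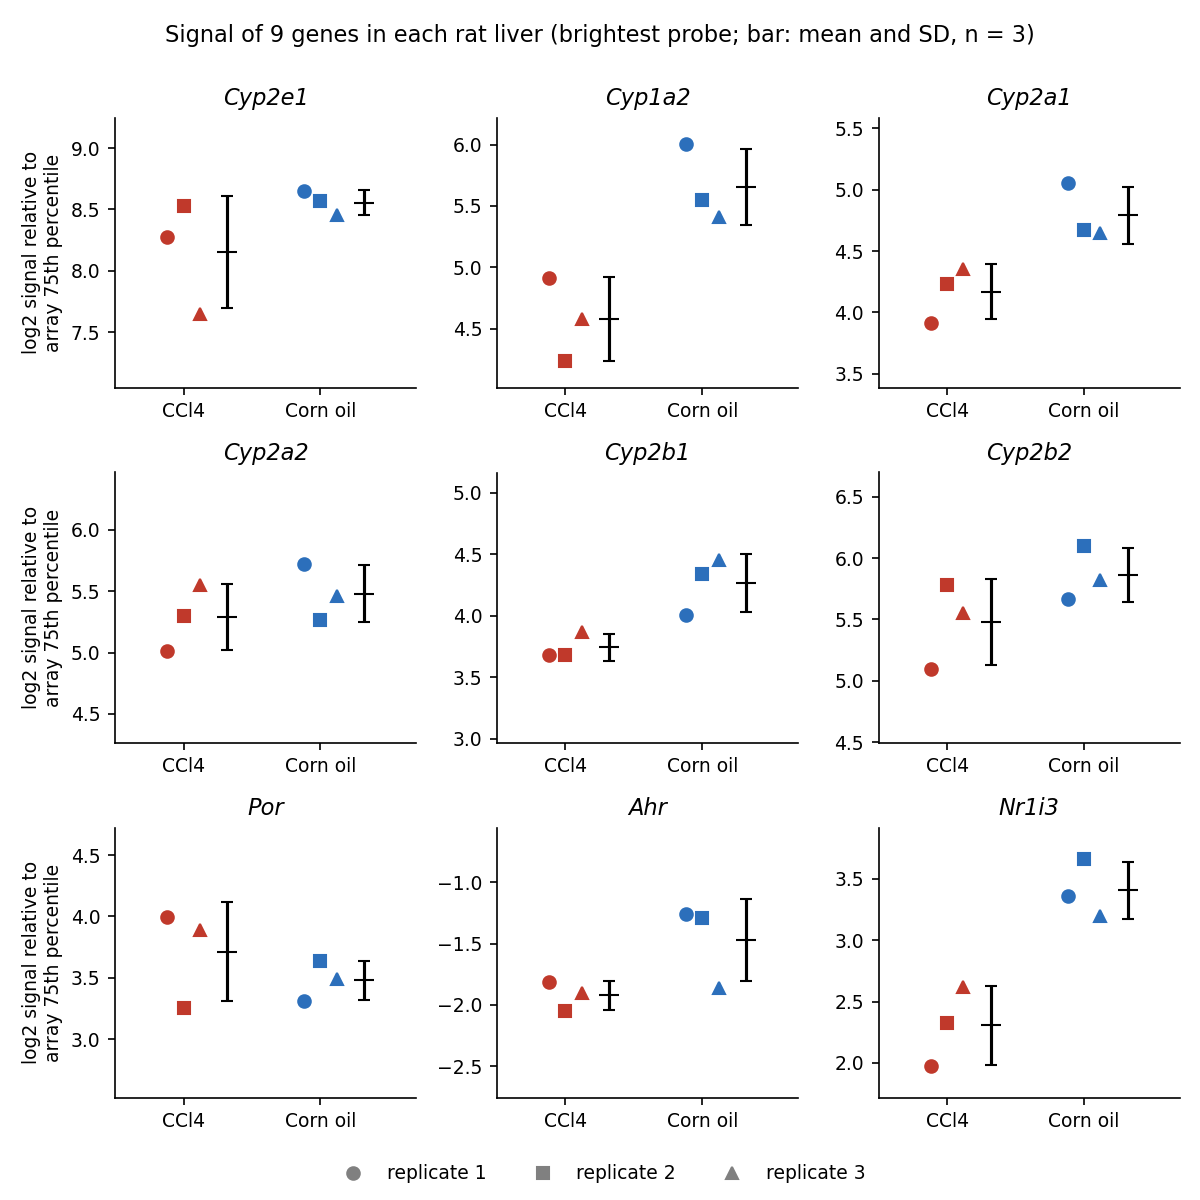
Scaled log2 signal (log2 relative to the array's 75th percentile, vertical axis) of 9 genes in each of 3 CCl4 livers (red) and 3 corn oil livers (blue), with the mean and SD beside each group; every panel spans the same height. The groups lie apart for Cyp1a2, Cyp2a1, Cyp2b1 and Nr1i3 and overlap for the other 5 genes.

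Cyp2e1, which encodes the enzyme that activates CCl4, was bright in every liver. Its single probe had scaled log2 signals of 8.27, 8.53 and 7.65 in CCl4 rats, against 8.65, 8.57 and 8.45 in corn oil rats. The corn oil rats lay close together, CCl4 replicate 2 was within their range, and CCl4 replicate 3 was the lowest of all. The mean was 8.15 ± 0.45 in CCl4 rats and 8.56 ± 0.10 in corn oil rats (SD, n = 3 each), a log2 change of -0.40 ± 0.23 (SE; 95% interval -0.96 to 0.15; adjusted p = 0.370). CCl4 livers thus held 0.756 times the Cyp2e1 signal of corn oil livers, with an interval that includes no difference. The change was -0.15 without CCl4 replicate 3, -0.59 without CCl4 replicate 2, -0.28 within the first slide and -0.23 under quantile normalization (adjusted p = 0.628). In bulk liver, fewer cells that express a gene and less RNA per cell cannot be told apart, here and for the genes below.

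Among 11100 genes well above background on all arrays, those most like Cyp2e1 over the 6 arrays were Napg (Pearson r = 0.986), Zfp365 (r = 0.983) and Rcbtb1 (r = 0.982). This describes 6 arrays only, with each gene set against many others. Zfp365 had scaled log2 signals of -3.67, -3.62 and -4.05 in CCl4 rats, against -3.51, -3.61 and -3.67 in corn oil rats, again with the lowest value in CCl4 replicate 3. Of the other 8 genes tested, none was as like Cyp2e1: r was highest for Cyp1a2 at 0.51 and lowest for Por at -0.69.

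The CYP1A enzymes oxidise planar aromatic compounds, and Cyp1a2 is a pericentral gene with high basal expression in liver, whereas Cyp1a1 is low until AHR is activated. Cyp1a1 was not well above background on any of the 6 arrays. Its processed signal was 4.40, 16.2 and 4.94 units in CCl4 rats, against 5.39, 3.88 and 8.70 units in corn oil rats, so no fold is given. Cyp1a2 had scaled log2 signals of 4.92, 4.23 and 4.58 in CCl4 rats, against 6.01, 5.55 and 5.41 in corn oil rats. The highest CCl4 rat lay below the lowest corn oil rat. The means were 4.58 ± 0.34 in CCl4 and 5.65 ± 0.31 in corn oil (SD, n = 3 each), a log2 change of -1.08 ± 0.23 (SE; 95% interval -1.63 to -0.52), or 0.474 times the corn oil signal, which did not pass (unadjusted p = 0.00291, adjusted p = 0.0868).

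The second Cyp1a2 probe was dimmer and gave nearly the same difference. Its scaled log2 signals were 2.33, 1.92 and 2.40 in CCl4 rats, against 3.62, 3.02 and 3.07 in corn oil rats, again without overlap. Its log2 change was -1.02 ± 0.22 (SE), and the probes correlated at r = 0.976 over the 6 arrays. Within the first slide Cyp1a2 was at -0.74. CCl4 replicate 1, the CCl4 rat on that slide, was the highest of the CCl4 rats on the brighter probe.

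CYP2A1 and CYP2A2 are steroid hydroxylases of rat liver, and CYP2A2 is the form typical of adult males. Cyp2a1 had scaled log2 signals of 3.92, 4.23 and 4.36 in CCl4 rats, against 5.06, 4.67 and 4.64 in corn oil rats. The groups did not overlap. The log2 change was -0.62 ± 0.17 (SE; 95% interval -1.04 to -0.21; adjusted p = 0.136), and the dimmer probe gave -0.73 ± 0.21 (SE), also with every CCl4 rat below every corn oil rat. Cyp2a2 had 5.01, 5.30 and 5.55 in CCl4 rats, against 5.72, 5.26 and 5.46 in corn oil rats. Here the groups overlapped on both probes, with log2 changes of -0.19 ± 0.19 on the brighter probe (SE; 95% interval -0.64 to 0.25; adjusted p = 0.586) and -0.29 ± 0.23 on the dimmer one. Within the first slide Cyp2a1 was at -0.87 and Cyp2a2 at -0.47. Single rats moved the value of Cyp2a2, which was -0.05 when CCl4 replicate 1 was left out and -0.33 when CCl4 replicate 3 was. With corn oil replicate 1 left out it was -0.07, and with corn oil replicate 2 left out -0.30.

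The difference between the neighbours Cyp2a1 and Cyp2a2 can be read within each array, where the scaling of the array cancels. The log2 value of Cyp2a1 minus that of Cyp2a2 was -1.09, -1.07 and -1.20 in CCl4 rats, against -0.66, -0.59 and -0.81 in corn oil rats. Cyp2a1 was thus lower relative to Cyp2a2 in every CCl4 rat, by 0.43 on average. The dimmer probes of both genes gave -0.98, -0.86 and -1.18 in CCl4 rats, against -0.56, -0.60 and -0.52 in corn oil rats, a mean shift of -0.44. This pair was singled out after its values were seen, and with 3 rats per group the exact two-sided permutation test cannot go below p = 0.1, the value reached. Of the 36 pairs among the 9 genes, 12 (33.3%) had differences that did not overlap between the groups, near the 26.3% among all pairs of tested genes, so such a separation is not particular to these genes.

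**Figure D2:**
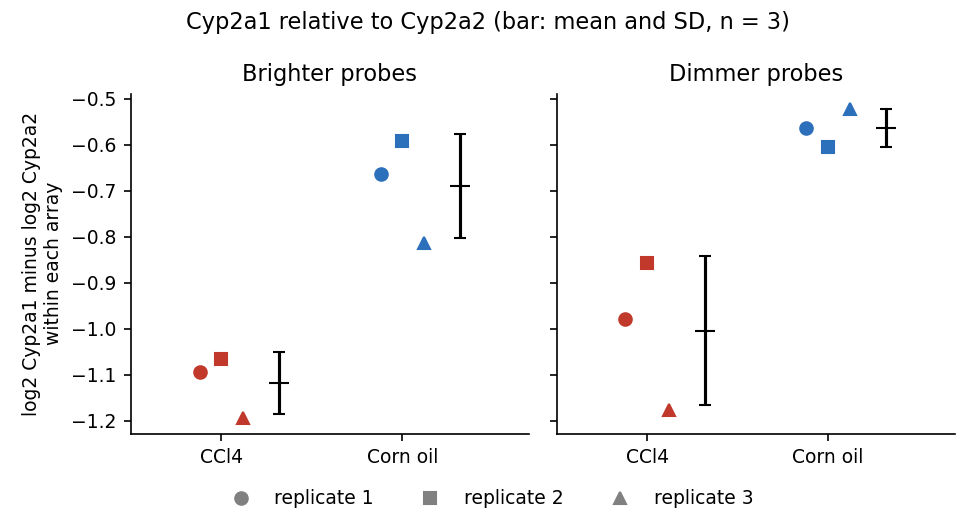
Log2 signal of Cyp2a1 minus log2 signal of Cyp2a2 within each array (vertical axis), for the brighter probe of each gene (left) and the dimmer probe (right), with mean and SD per group (n = 3). CCl4 rats (red) lie below corn oil rats (blue) in both panels.

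Other pairs within arrays, also singled out after their values were seen from the 12 with groups apart, are given as a description only. Cyp2e1 minus Cyp1a2 was 3.36, 4.30 and 3.06 in CCl4 rats, against 2.64, 3.02 and 3.04 in corn oil rats, so Cyp1a2 was lower relative to Cyp2e1 in each CCl4 rat, by a margin of 0.67 on average and narrowly in CCl4 replicate 3. Nr1i3 was lower relative to Por in every CCl4 rat: Por minus Nr1i3 was 2.02, 0.93 and 1.28 in CCl4 rats, against -0.05, -0.02 and 0.29 in corn oil rats, a mean shift of 1.33. For both pairs the exact two-sided permutation p was 0.1, the smallest possible. Every pair whose groups lie apart has this value, so it adds nothing to the separation for which they were picked.

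CYP2B1 and CYP2B2 are the phenobarbital-inducible enzymes of rat liver, and CYP2B1 can also metabolise CCl4. The Cyp2b1 probe had scaled log2 signals of 3.68, 3.68 and 3.87 in CCl4 rats, against 4.004, 4.34 and 4.46 in corn oil rats. The CCl4 rats lay close together and below all corn oil rats. The log2 change was -0.53 ± 0.15 (SE; 95% interval -0.88 to -0.17; adjusted p = 0.139), or 0.695 times the corn oil signal, and it was -0.59 within the first slide.

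Cyp2b2 had scaled log2 signals of 5.09, 5.78 and 5.55 in CCl4 rats, against 5.66, 6.10 and 5.82 in corn oil rats, and the groups overlapped. The log2 change was -0.39 ± 0.21 (SE; 95% interval -0.89 to 0.12; adjusted p = 0.351). Of the 5 Cyp2b2 probes all had a negative change, from -0.56 ± 0.36 to -0.09 ± 0.13 (SE), and on 0 of the 5 did the groups lie apart. On all 5 the lowest array was CCl4 replicate 1. On the probe with the widest spread the scaled log2 signals were 0.96, 2.31 and 2.20 in CCl4 rats, against 2.17, 2.43 and 2.55 in corn oil rats. Without CCl4 replicate 1 the change of the brightest probe was -0.20, and within the first slide, which holds that rat alone of its group, it was -0.77.

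CCl4 replicate 1 was also the lowest array on both probes of Cyp2a1, both of Cyp2a2 and all 4 of Nr1i3. In all it was lowest on 13 of the 19 probes tested, which fall on 4 of the 9 genes, while it was lowest for 17% of all genes tested. Probes of a gene share their RNA and are not separate evidence. For Cyp2e1, by contrast, the lowest rat was CCl4 replicate 3, and for Cyp1a2, Cyp2b1, Por and Ahr it was CCl4 replicate 2.

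**Figure D3:**
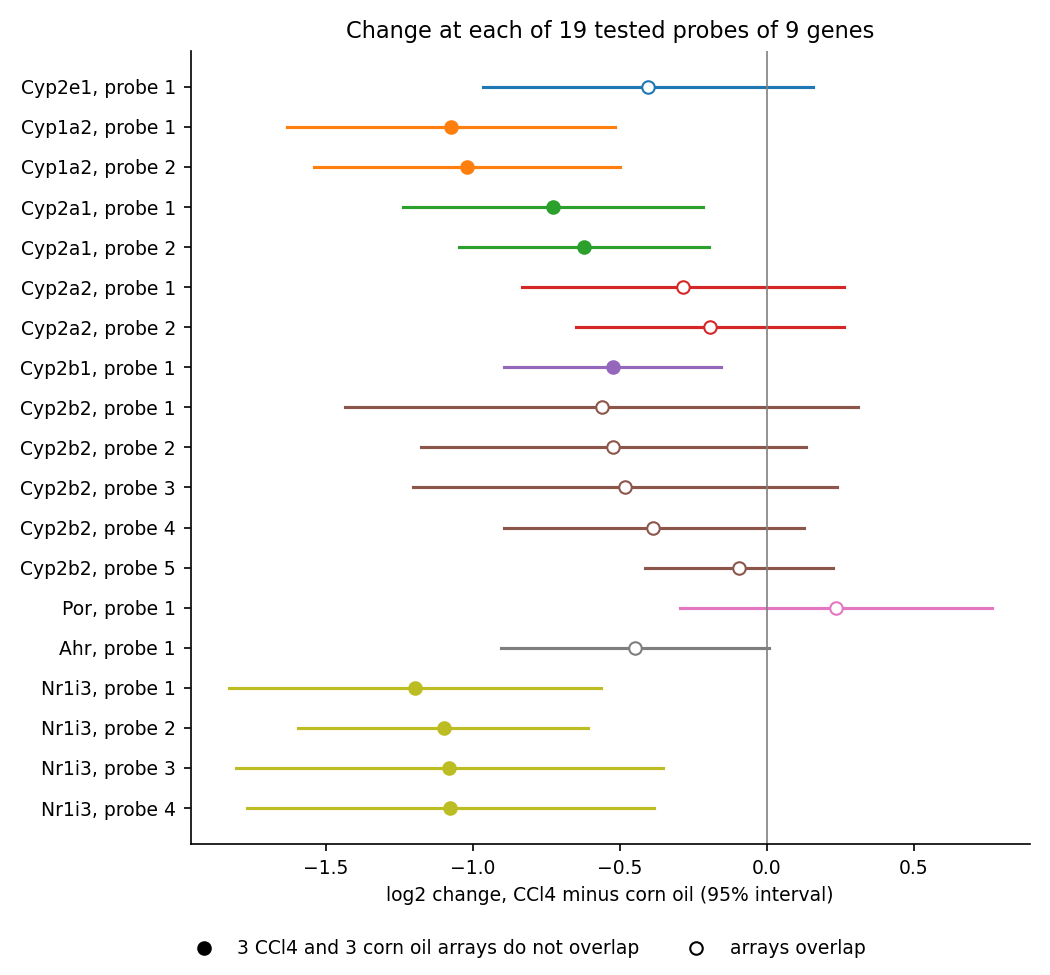
Log2 change, CCl4 minus corn oil (horizontal axis), with its 95% interval at each of the 19 tested probes, by gene; filled points mark probes on which the groups did not overlap. Both Cyp1a2 probes, both Cyp2a1 probes, the Cyp2b1 probe and all 4 Nr1i3 probes are filled, and 18 of 19 changes are negative.

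When every probe was tested on its own among 40478 probes, 0 of the 19 passed (0.341% of all probes did), and the smallest adjusted p was 0.0988, for the brightest Nr1i3 probe. At an unadjusted p below 0.05 there were 9 of the 19, all negative, against 8.14% of all probes that were lower in CCl4 at this level. In 18 of the 19 the change was negative (55.7% of all probes), and on 9 of the 19 every CCl4 rat was below every corn oil rat (13.7% of all probes). The 5 genes with several probes had the same sign on each, and the probes of a gene correlated over the 6 arrays at r = 0.860 or higher.

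Por encodes the reductase that supplies electrons to all microsomal P450 enzymes. It had scaled log2 signals of 3.997, 3.25 and 3.89 in CCl4 rats, against 3.31, 3.63 and 3.49 in corn oil rats. CCl4 rats were both the highest and the lowest, so the groups overlapped. The log2 change was 0.23 ± 0.22 (SE; 95% interval -0.29 to 0.76; adjusted p = 0.574), and 0.52 within the first slide. It was 0.09, 0.47 and 0.14 with CCl4 replicates 1, 2 and 3 left out in turn, and 0.15 with corn oil replicate 1 left out.

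Ahr, the receptor of dioxins and other planar aromatics, had scaled log2 signals of -1.82, -2.05 and -1.90 in CCl4 rats, against -1.26, -1.30 and -1.86 in corn oil rats. Corn oil replicate 3 lay among the CCl4 rats. The log2 change was -0.45 ± 0.18 (SE; 95% interval -0.89 to -0.003; unadjusted p = 0.0490, adjusted p = 0.251). It was -0.34 within the first slide and -0.64 without corn oil replicate 3. Tested among all probes, the same Ahr probe had an unadjusted p of 0.0521 in limma's test, so Ahr lay at the edge of the 0.05 level.

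Nr1i3, which encodes CAR, differed about as much as Cyp1a2, and which of them had the larger difference varied with the setting: without CCl4 replicate 1 it was -0.94 for Nr1i3 and -1.25 for Cyp1a2. Its brightest probe had scaled log2 signals of 1.98, 2.32 and 2.62 in CCl4 rats, against 3.36, 3.66 and 3.20 in corn oil rats. Every CCl4 rat was below every corn oil rat, with a gap between the groups. The means were 2.31 ± 0.32 in CCl4 and 3.40 ± 0.23 in corn oil (SD, n = 3 each), a log2 change of -1.10 ± 0.20 (SE; 95% interval -1.59 to -0.61), or 0.467 times the corn oil signal. It did not pass over all genes (unadjusted p = 0.00132, adjusted p = 0.0725). It did pass with normexp background correction, at -1.14 (adjusted p = 0.0379), and when CCl4 replicate 3 was left out, at -1.26 (adjusted p = 0.0491). It was at -1.43 within the first slide.

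The 4 Nr1i3 probes cover 2 RefSeq transcript records of the gene and agree within their errors. The 3 dimmer probes gave log2 changes of -1.20 ± 0.26, -1.08 ± 0.30 and -1.08 ± 0.29 (SE), each with groups apart. On the dimmest of them the scaled log2 signals were -0.26, 0.54 and 0.81 in CCl4 rats, against 1.11, 1.60 and 1.61 in corn oil rats. A log2 change of -1.0 or below, a size picked after the values were seen, was reached by 120 of 11939 genes (1.01%), Nr1i3 and Cyp1a2 among them.

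Genes that work with these enzymes and receptors were counted in fixed lists, and 0 members of any list passed over all genes, where 0.637% of all genes did. AHR partners and targets had a negative change in 8 of 9 measured members (57.2% of all genes), with a median of -0.25, and 4 had every CCl4 rat below every corn oil rat (15.9% of all genes). Among them Arnt, the dimer partner of AHR, was at -0.03 ± 0.18 (adjusted p = 0.932) and Nqo1, a quinone reductase, at -0.39 ± 0.28 (adjusted p = 0.473). The AHR targets Ahrr, Tiparp and Cyp1b1 were not tested. Partners, related receptors and targets of CAR had a median of -0.11, with 6 of 11 members negative. In 2 of the 11 every CCl4 rat was below every corn oil rat, and in 2 every CCl4 rat was above (11.5% of all genes). Ncoa1 and Ncoa6 of that list were not tested. Rxra, the dimer partner of CAR, was at -0.11 ± 0.11 (adjusted p = 0.584), and Nr1i2, which encodes the related receptor PXR, at -0.27 ± 0.19 (adjusted p = 0.466). Abcc3, an efflux transporter and CAR target singled out after its values were seen, had scaled log2 signals of -0.30, -0.20 and -1.69 in CCl4 rats, against -3.12, -2.45 and -3.20 in corn oil rats, and a log2 change of 2.20 ± 0.43 (SE; adjusted p = 0.0759).

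The electron supply genes beside Por had a median of -0.12 over 6 members. Cyb5a, which encodes cytochrome b5, was at -0.19 ± 0.16 (adjusted p = 0.525). Heme, the cofactor of every P450, is made by a pathway whose genes, with those of heme breakdown, had a median of -0.15 and a negative change in 8 of 12 members. Alas1, its rate-limiting enzyme, was at -0.22 ± 0.39 (adjusted p = 0.788) and Hmox1, which degrades heme, at -0.20 ± 0.17 (adjusted p = 0.539). The 7 measured relatives outside the 10, Cyp2b3, Cyp2b12, Cyp2b15, Cyp2b21, Cyp2f4, Cyp2s1 and Cyp2t1, had a median of -0.12, while Cyp2a3 and Cyp2g1 of that list were not tested. Cyp2s1, at 0.53 ± 0.16 (SE; adjusted p = 0.162), was the 1 member of the 7 with groups apart, CCl4 higher (11.5% of all genes). Against these medians the 9 genes stood at -0.45, and no test of that difference was made.

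Markers of the cells in the samples moved with the groups in part. The hepatocyte list had a median of -0.23 and 7 of 8 negative changes, and its summed linear scaled signal was 4868 to 5740 in CCl4 rats and 6118 to 6552 in corn oil rats, without overlap. Hepatocyte transcription factors had a median of -0.34 with 9 of 11 negative, and Hnf4a, which maintains hepatocyte gene expression, was at -0.34 ± 0.17 (adjusted p = 0.315). When the mean of the 8 hepatocyte markers served to scale each array, an alternative added after the data were seen, the change was -0.88 for Nr1i3, -0.85 for Cyp1a2, -0.40 for Cyp2a1, -0.30 for Cyp2b1, -0.22 for Ahr, -0.18 for Cyp2e1, -0.16 for Cyp2b2, 0.46 for Por and 0.03 for Cyp2a2, whose sign turned. That scaling moved the median of all genes to 0.18, and 0 of the 9 passed.

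Of the markers around the central vein, where Cyp2e1 and Cyp1a2 are expressed, 4 of 8 had a negative change, the median was 0.27, and the summed signal was 29.0 to 37.1 in CCl4 rats and 36.9 to 77.9 in corn oil rats. Glul, glutamine synthetase of the innermost hepatocytes, was at -0.24 ± 0.24 (adjusted p = 0.606). The groups lay apart for 2 of the 8, with CCl4 lower for 1 (15.9% of all genes) and higher for 1 (11.5% of all genes). Oat, ornithine aminotransferase, was lower, at -1.34 ± 0.35 (SE; adjusted p = 0.125). Rhbg, an ammonium transporter, was higher, at 1.16 ± 0.39 (SE; adjusted p = 0.191). Oat made up most of the summed signal of this list in corn oil rats. Periportal markers had a median of -0.26, with 7 of 8 negative and summed signals of 338 to 513 in CCl4 rats and 428 to 670 in corn oil rats, and Cps1, a urea cycle enzyme, was at -0.21 ± 0.48 (adjusted p = 0.835). Stellate cell and myofibroblast markers had a median of 0.41 with 6 of 8 positive, and summed signals of 32.9 to 49.4 in CCl4 rats and 26.6 to 32.9 in corn oil rats. Most of that sum came from Col3a1, at 0.734 ± 0.195 (SE; adjusted p = 0.127). The groups overlapped for the fixed example Col1a1, at 0.16 ± 0.256 (SE; adjusted p = 0.76), while Acta2 (-0.239) and Lrat (-0.016) were the negative members. The remaining lists had medians of -0.17 for macrophages, 0.10 for endothelium, 0.01 for bile duct and 0.04 for lymphocytes. Their fixed examples had overlapping groups. The macrophage marker Cd68 was at 0.125 ± 0.134 (SE; adjusted p = 0.628) and the endothelial marker Pecam1 at -0.008 ± 0.109 (SE; adjusted p = 0.977). Krt19, of the bile duct list, was at -0.173 ± 0.157 (SE; adjusted p = 0.565). The summed signal of the macrophage list was 69.6 to 89.7 in CCl4 rats and 81.5 to 101 in corn oil rats, and most of it came from Clec4f, a Kupffer cell receptor at -0.35 ± 0.14 (SE; adjusted p = 0.247). Of the 8 macrophage markers 4 were negative and 4 positive. In 2 of them, Itgam at 1.99 ± 0.35 (SE; adjusted p = 0.0665) and Marco at 0.91 ± 0.24 (SE; adjusted p = 0.129), every CCl4 rat was above every corn oil rat (11.5% of all genes). Itgam was dim, with scaled log2 signals of -4.724, -5.709 and -4.885 in corn oil rats. The lowest lay within the range of Cyp1a1, -7.259 to -5.384, which was not well above background on any array. The filter asks for 3 of 6 arrays, so CCl4 rats alone could have let Itgam through, and the size of its change is uncertain. The endothelial list summed to 32.7 to 39.1 in CCl4 rats and 40.4 to 47.4 in corn oil rats. Most of that sum came from Kdr, at -0.38 ± 0.12 (SE; adjusted p = 0.171), while 3 of the 5 measured members had a positive change. The bile duct list, of low signal, summed to 2.54 to 5.35 in CCl4 rats and 2.17 to 2.45 in corn oil rats, without overlap. The lymphocyte list summed to 4.33 to 4.58 in CCl4 rats and 3.60 to 4.66 in corn oil rats. Stab2, Vwf and Clec4g of the endothelial list and Sox9 of the bile duct list were not tested. The part of these markers in the results on the 10 genes was not tested beyond the hepatocyte scaling above.

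**Figure D4:**
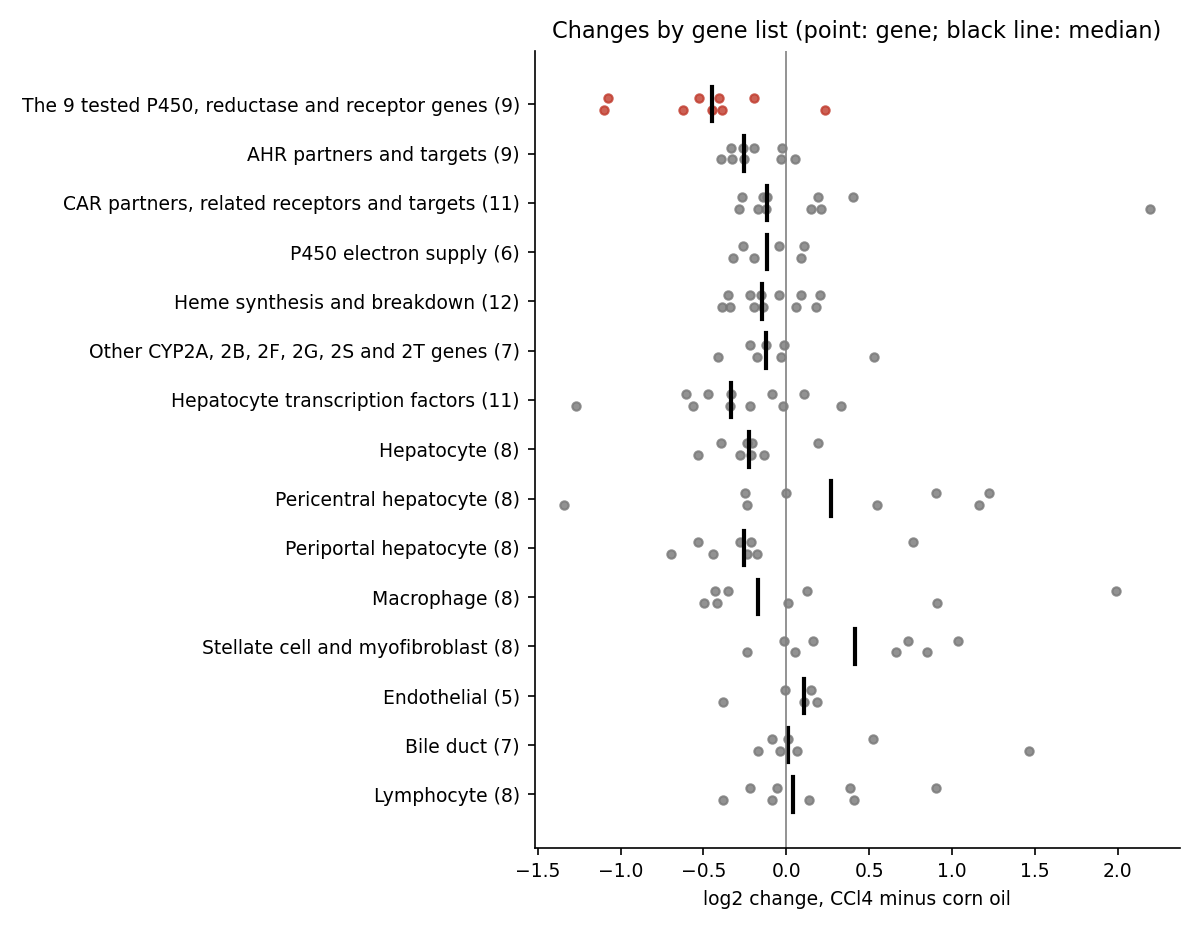
Log2 change, CCl4 minus corn oil (horizontal axis), of each measured gene (points) and the median (black line) for the 9 tested genes (red) and 14 other lists (grey), with the number of genes in brackets. The 9 genes have a median of -0.45, with Por alone above 0.

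**Figure D5:**
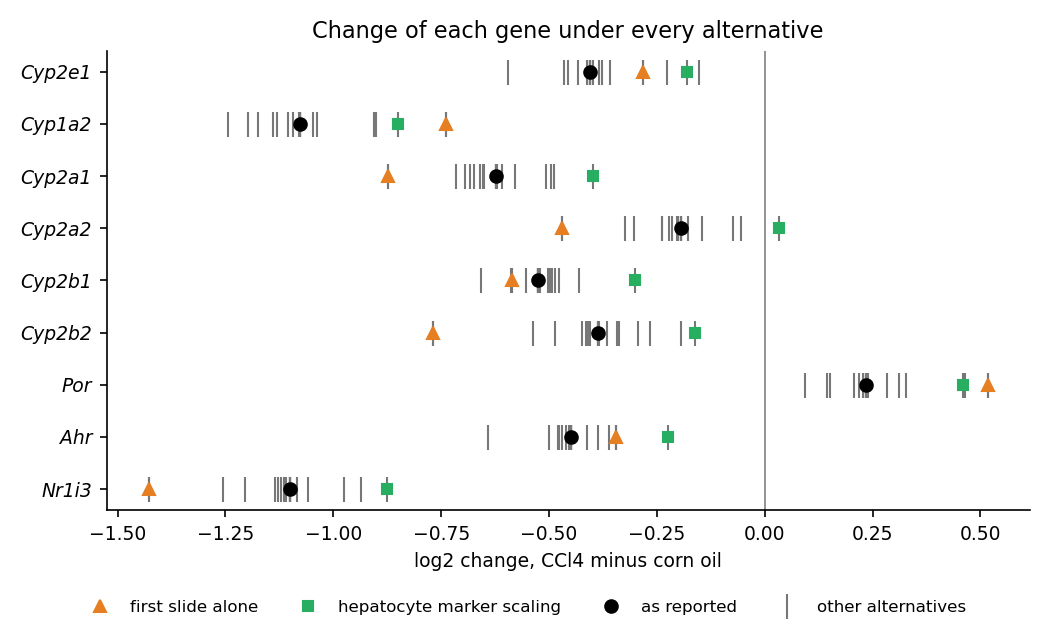
Log2 change, CCl4 minus corn oil (horizontal axis), of each gene as reported (black), within the first slide (orange), with hepatocyte marker scaling (green) and under the other alternatives (grey). Cyp2a2 alone crosses 0, under hepatocyte marker scaling.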

How the data were processed

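Per the labels' protocols, Cy3-labelled cRNA made from 0.2 µg of liver RNA was hybridised to 1-colour Agilent arrays, and the labels describe separate animals. Scanning software was Agilent Feature Extraction, of version 10.7.1.1 per the file headers and 10.7 according to the notes of the submitters. Its deposited intensity values are background-subtracted and not yet normalized between arrays, and further columns are flags. The values of the deposited series table are a ratio, each array's processed signal over a constant of 583.3 to 676.5 units, as inferred from the values; its column medians were 0.103 to 0.110, and the labels do not describe the step. The array design names the rn4 build, so GRCr8 served only for names and the promoter windows.

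Control spots (1439) and 26 probes with an outlier flag were left out. Of 61537 probes, 28206 (45.8%) matched 1 gene symbol, 0 several and 33331 none, through the unversioned accession. Log2 signals were set relative to each array's 75th percentile. Probes well above background on at least 3 of 6 arrays were kept, and the brightest probe stood for a gene. None of the 20 probes was saturated or had an outlier flag. The precision is limited by 3 arrays per group. CCl4 and corn oil rats were compared by lmFit and eBayes of limma 3.58.1 (R 4.3.3), two-sided, at a threshold of 0.05 after adjusting p by Benjamini-Hochberg across every gene, or every probe, tested. The method was tested on simulated data with normal noise at each gene's spread, in 20 runs with 200 changed genes each. It recovered 61.2% of log2 changes of size 1 and 86.9% of those of size 2, and 4.7% of its calls were false. A true change near size 1 can therefore fail to pass. All 10 genes and their probes are named whatever their result, with fixed examples from the lists and the 3 genes most like Cyp2e1. The list members Abcc3, Cyp2s1, Oat, Rhbg, Clec4f, Itgam, Marco and Kdr were not fixed examples and were picked after their values were seen. Members and lists were chosen with earlier results of these data known. Alternatives were other normalizations, background corrections, filters, probe means, a variance trend, array weights, slide or replicate number as a block, the first slide alone, and leaving out each array. Normexp used median spot signals. Same-numbered rats do not deviate together, so the replicate number was not taken as a pairing.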

Additional observations from a re-analysis of the deposited data

How the results depend on the processing

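Of the 9 genes, 1, Nr1i3, passed under normexp background correction and without CCl4 replicate 3, so that leaving out arrays gave counts of 0 to 1, and 0 passed under the other 18 of 20 alternatives. Several of these made few calls or none among all genes, as given here, and so say nothing on stability. Of the 19 probes, 0 passed under any of the alternatives run. Changes kept their sign under all 20 alternatives for 8 genes, and Cyp2a2 turned from -0.19 to 0.032 with hepatocyte marker scaling, the alternative chosen after seeing the data; the cause was not tested. Nr1i3 ranged from -1.43 to -0.88 (lowest adjusted p = 0.0379), Cyp1a2 from -1.25 to -0.74 (lowest adjusted p = 0.0617) and Cyp2e1 from -0.59 to -0.15 (lowest adjusted p = 0.309). Over all genes 76 passed, 67 higher and 9 lower. The count was 214 under normexp, 139 with the filter on all 6 arrays, which tests fewer genes, 156 with a variance trend, 128 with array weights, 4 with slide as a fixed block, 0 by limma within the first slide (1598 at an unadjusted p below 0.05), where a lone CCl4 array is assumed to vary like corn oil arrays, and 10 with the replicate block. Leaving out each array gave 2 to 241: 6, 2 and 241 without CCl4 replicates 1, 2 and 3, and 27, 43 and 5 without corn oil replicates 1, 2 and 3. The cause of these shifts was not tested. With the replicate number as a block, 0 of the 9 genes passed, and Nr1i3 had an adjusted p of 0.128. Same-numbered rats correlated in their deviations from the group means at -0.05, 0.16 and 0.02, so the numbers were not read as pairs. Cyp1a1 was not well above background on any array, so a difference in it was not detectable.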
